A study of Rattus norvegicus with 2 samples.

Results

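Steroid receptors and steroid-metabolizing enzymes were compared between a pair of Affymetrix arrays of AT6.1, a rat line of prostate cancer cells that is established in culture. The set was given as 9 gene symbols (Pgr, Esr1, Nr3c1, Nr3c2, Hsd3b1, Srd5a1, Hsd17b4, Hsd11b1 and Fkbp5), and its probe sets are those that the platform annotation gives to exactly 1 of these genes. These were 10 probe sets of 8 genes, among 20826 probe sets that carried a single symbol and 14217 genes in all. Srd5a1 matched no probe set by this rule and was not analysed here. The set was chosen with the values of these arrays known, so the ratios below describe the members and are not tests of them.

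One array came from clone # 7, transfected with the pcDNA3 expression vector carrying Ndrg-1 (N-myc downstream regulated gene-1), and the other from clone # 9, transfected with pcDNA3 without an insert. Both clones were kept in 0.3 mg/mL G418, the drug that selects for the vector, in medium with 10% fetal calf serum. Each group is 1 clone, 1 culture and 1 array, so clone, culture, array and insert cannot be told apart, and no p-value could be given. The values are probe set signals (hybridisation intensities on a linear scale). Ratios are log2 of the signal in the Ndrg-1 clone over that in the vector clone, after the vector array was rescaled by 0.0048 on the log2 scale, and signals printed are those deposited. Signals under 31.0, the median of all probe sets, were set to that floor before a ratio was taken, so where only 1 signal passed it, the fold is a bound ("at least").

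Steroid receptors are transcription factors that a hormone switches on. Glucocorticoids act through Nr3c1, mineralocorticoids through Nr3c2, progesterone through Pgr and estrogens through Esr1. Heat shock proteins and co-chaperones such as Fkbp5 hold the unliganded receptor, and enzymes in the cell make, activate or inactivate the hormone before it reaches its receptor. Many prostate cancers depend on steroid signalling. AT6.1 is a derivative of the rat Dunning tumour series, and whether it depends on steroids was not tested here.

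The labels were checked on the transfected gene. The brighter probe set of Ndrg1 read 1353 in the Ndrg-1 clone and 1062 in the vector clone (log2 ratio 0.34), and the dimmer had 154 and 181 (-0.24). Neither was 2-fold different. Whether either probe set reads the inserted sequence was not tested, so these signals cannot settle the labels. "Ndrg-1 clone" and "vector clone" below mean the arrays so labelled. The deposited scale was common to both arrays, with a trimmed mean signal of 150.0 in each. The spiked controls did not share that scale. All 18 probe sets of the hybridisation spikes were lower in the Ndrg-1 clone, by a median log2 ratio of -0.54, and 23 of 24 poly-A spike probe sets were higher (0.22). Ratios here are relative to the median gene. Scaling to the hybridisation spikes moved the median of all measured genes from 0.0029 to 0.53, and scaling to the poly-A spikes moved it to -0.21. Of 8 markers of prostate luminal epithelium with a probe set, only Krt8 was above the floor, at 38.7 in the Ndrg-1 clone, while Krt18, Epcam, Cdh1, Hoxb13 and Foxa1 lay under it in both arrays.

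Of the 8 genes with a probe set, 7 were measured, meaning above the floor in at least 1 array. Both 2-fold differences were higher signals in the Ndrg-1 clone: Hsd3b1, at least 5.18-fold, and Pgr, 2.43-fold. No member was 2-fold lower. Hsd11b1 and Fkbp5 were lower by less than that, at 1.76-fold and 1.54-fold. Nr3c1, Nr3c2 and Hsd17b4 differed by 1.21-fold or less, and Esr1 was under the floor in both arrays. Of all 9182 measured genes, 4625 had a log2 ratio above 0 and 4557 below. At least 2-fold different were 3.13% of them, 1.62% higher and 1.5% lower. The members were chosen on this contrast, so nothing is read from the set's 2 against that share. In cell lysates, fewer cells with a transcript and less transcript per cell cannot be told apart.

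**Figure D1:**
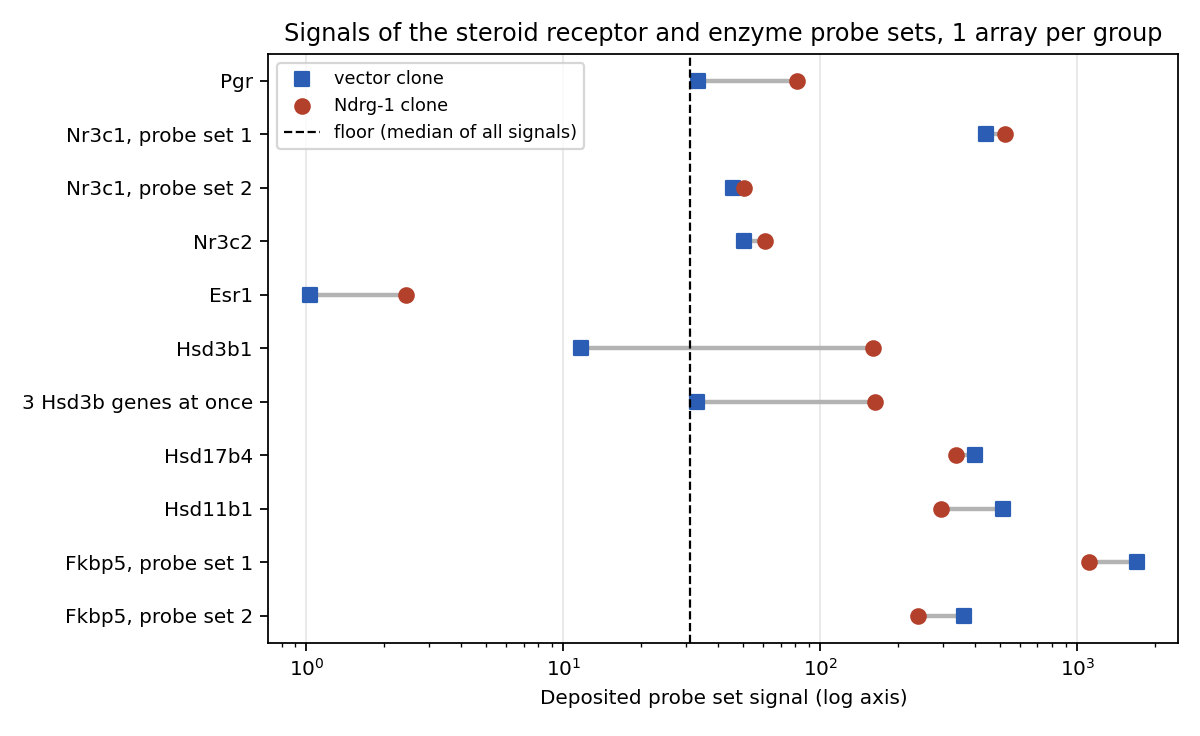
Deposited signal (log axis) of every probe set of the members in the Ndrg-1 clone (circles) and the vector clone (squares), 1 array each, with the floor of 31.0 as a dashed line; a further row shows the probe set annotated to 3 Hsd3b genes at once, and probe set 1 is the brighter of a gene's probe sets. The widest gap is that of Hsd3b1, whose vector signal of 11.7 lies under the floor, and Esr1 lies under it in both arrays.

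The only error that these arrays allow is the disagreement between probe sets of the same gene. Its SD on the log2 ratio was 0.23 over 5336 probe sets of 2296 genes above the floor in both arrays. It was 0.29 for genes with a mean signal under 100 and 0.21 for brighter genes. This SD leaves out the variation between clones, cultures and arrays. Dim genes also reached 2-fold more often, with 7.37% of 2348 measured genes under a mean signal of 100 and 1.67% of 6834 brighter genes. Pgr, Nr3c2 and Hsd3b1 belong to the dim group, and Nr3c1, Hsd17b4, Hsd11b1 and Fkbp5 to the bright one.

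The promoter sequences of the members that differed most are shown first, with the Hsd3b relatives from which Hsd3b1 could not be separated. Each is the 250 bases before the annotated start in RefSeq on rat assembly GRCr8, written 5′ to 3′ along the gene. The table held promoters for Pgr, Esr1, Nr3c1, Srd5a1, Hsd17b4, Fkbp5 and Hsd3b1 among the 9 symbols. Those of Hsd3b1 (chr2:188864695-188864944, minus strand) and Hsd3b3 (chr2:188832735-188832984, minus strand) differed at 1 position, T221C, counted from the 5′ end of the stretch with Hsd3b1 as the reference, and this base is in capitals in both. That of Hsd3b2 (chr2:188794070-188794319, minus strand) was 40.4% identical to Hsd3b1 over the global alignment, and its capitals mark AGAACA, a single arm of the palindrome that the glucocorticoid, mineralocorticoid, progesterone and androgen receptors bind.
Hsd3b1: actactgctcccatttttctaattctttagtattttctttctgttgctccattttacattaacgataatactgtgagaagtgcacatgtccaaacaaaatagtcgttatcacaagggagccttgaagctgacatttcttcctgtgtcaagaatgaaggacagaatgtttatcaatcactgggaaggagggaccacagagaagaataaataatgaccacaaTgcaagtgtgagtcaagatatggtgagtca
Hsd3b3: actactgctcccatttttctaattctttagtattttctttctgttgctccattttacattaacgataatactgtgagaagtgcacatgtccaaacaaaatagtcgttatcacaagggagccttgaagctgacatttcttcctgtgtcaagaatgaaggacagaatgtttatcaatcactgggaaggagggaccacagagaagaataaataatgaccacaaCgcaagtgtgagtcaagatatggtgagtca
Hsd3b2: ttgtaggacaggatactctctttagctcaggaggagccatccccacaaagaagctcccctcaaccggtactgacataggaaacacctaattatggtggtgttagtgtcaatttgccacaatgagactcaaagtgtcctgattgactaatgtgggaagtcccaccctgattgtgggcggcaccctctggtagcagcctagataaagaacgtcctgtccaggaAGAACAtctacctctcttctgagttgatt

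The promoters of Pgr (chr8:14354148-14354397, plus strand) and Fkbp5 (chr20:6543556-6543805, minus strand) are shown because Pgr was the receptor that reached 2-fold and Fkbp5 is a textbook glucocorticoid target. Neither held AGAACA, and they are printed without capitals.
Pgr: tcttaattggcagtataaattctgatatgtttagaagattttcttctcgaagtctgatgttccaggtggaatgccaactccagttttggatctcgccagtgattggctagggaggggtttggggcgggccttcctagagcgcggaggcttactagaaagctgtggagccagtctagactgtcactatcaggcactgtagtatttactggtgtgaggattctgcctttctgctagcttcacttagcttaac
Fkbp5: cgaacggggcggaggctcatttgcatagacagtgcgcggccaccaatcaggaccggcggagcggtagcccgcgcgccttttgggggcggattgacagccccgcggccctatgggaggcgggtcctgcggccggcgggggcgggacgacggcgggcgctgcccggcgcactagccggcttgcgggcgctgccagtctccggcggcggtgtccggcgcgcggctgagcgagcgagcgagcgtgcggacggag

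Response elements were searched on both strands of the 300 bases from 250 before to 50 after each start. The palindrome of the glucocorticoid receptor group, AGAACA and TGTTCT with any 3 bases between them, was in 5 of 33469 promoters (0.0149%) and the estrogen response element, AGGTCA and TGACCT with any 3 bases between them, in 3 (0.00896%). None of the promoters printed here held either, nor did those of Esr1, Nr3c1, Srd5a1 and Hsd17b4. The single arm AGAACA, which overlaps the palindrome, was in 20.7% of promoters. Among the 7 symbols with a promoter, only Hsd17b4 held it, with 2 matches beginning 206 and 141 bases before the start. A match of letters does not show binding, and the absence of one says only that these letters are not in this window.

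Hsd3b1 had the largest ratio of the set. It encodes a 3-beta-hydroxysteroid dehydrogenase, which turns the first steroid made from cholesterol, pregnenolone, into progesterone. Its probe set read 161 in the Ndrg-1 clone and 11.7 in the vector clone, under the floor, so the difference is at least 5.18-fold (log2 ratio 2.37 or more). The Ndrg-1 signal was higher than that of 73.9% of probe sets in that array, and the vector signal higher than that of 31.7%.

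The gene behind that signal is uncertain among Hsd3b1, Hsd3b2 and Hsd3b3, related genes that lie near each other on chromosome 2. The platform annotation names the probe set Hsd3b1 by gene ID. The transcript it was designed from (NM_017265) belongs to Hsd3b2 in the RefSeq annotation of GRCr8, where Hsd3b1 is listed as an older name of Hsd3b2. Such conflicts were rare: 11 of 2900 probe sets with a RefSeq accession and a gene ID named a different gene by each (0.379%). A second probe set, annotated to Hsd3b1, Hsd3b2 and Hsd3b3 together and so outside the rule, had signals of 163 and 33.1, 4.90-fold higher in the Ndrg-1 clone. Both Hsd3b probe sets were thus higher in the Ndrg-1 clone, and neither says which of the 3 genes was read. The relatives with probe sets of their own were not 2-fold higher. Hsd3b7, which acts on bile acid precursors, had 167 and 178 (log2 ratio -0.10), and Hsd3b5 had 2.10 and 10.6, under the floor in both arrays.

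No other gene of steroid synthesis reached 2-fold. In the list for synthesis from cholesterol, 8 of 14 genes with a probe set were measured. Hsd3b1 was the 1 gene 2-fold higher and 0 were lower, 12.5% of those measured beside 3.13% of all genes. The list's median log2 ratio was 0.02, beside 0.0029 over all measured genes. Star, which carries cholesterol into mitochondria, had signals of 56.9 and 30.2 and was at least 1.83-fold higher, with its second probe set under the floor in both arrays. Cyp11a1, which cuts cholesterol to pregnenolone, had 22.6 and 20.3, and Cyp17a1, needed for androgens, 0.596 and 1.04, both under the floor. Por, the electron donor of Cyp17a1, was at the lower end of the list at a log2 ratio of -0.39. The second Por probe set, with 158 and 255, was at -0.70. Tspo, a mitochondrial outer membrane protein, was also at -0.39. Of 8 markers of adrenal and gonadal steroid-making cells, 2 were measured (Star and Inhba), and the summed signal of all 8 was 424.0 in the Ndrg-1 clone and 424.1 in the vector clone, of which Inhba, a subunit gene of activin that many cells express, held 309 and 307. Cyp11b1, Cyp21a1, Nr5a1 and Lhcgr, which define these cells, lay under the floor in both arrays.

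Pgr, the nuclear progesterone receptor, had signals of 81.4 in the Ndrg-1 clone and 33.4 in the vector clone. The vector signal lay just above the floor of 31.0 and near the lowest signal of the bioB hybridisation spikes, 28.8. The difference was 2.43-fold (log2 ratio 1.28), and at least 80 measured genes (0.871%) had a higher ratio. A single probe set reads the gene, so no other probe set bears on it. With a pseudocount of 16 added in place of the floor, the log2 ratio was 0.98, just under 2-fold.

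The remaining hormone receptors of the set differed less. Nr3c1, the glucocorticoid receptor, had 522 in the Ndrg-1 clone and 443 in the vector clone on its brighter probe set (log2 ratio 0.23) and 50.4 and 45.6 on the dimmer (0.14). Both probe sets were slightly higher in the Ndrg-1 clone. Of measured genes at least 43.1% lay as far from 0 as the brighter of them. Nr3c2, the mineralocorticoid receptor, had 61.0 and 50.3 (0.28), within the SD of 0.29 between probe sets of dim genes. Esr1, the estrogen receptor alpha, had 2.43 and 1.03. These exceeded 12.3% and 4.74% of the probe sets of their arrays, so its level could not be compared.

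Across the wider list of receptors, 9 of 19 genes with a probe set were measured. Of these, 7 lay above 0, beside 4625 of all 9182 measured genes. The list had 1 gene (Pgr) 2-fold higher and 0 lower, 11.1% of those measured beside 3.13% of all genes. Its median log2 ratio was 0.24, beside 0.0029 over all measured genes. It was 0.78 when scaled to the hybridisation spikes and 0.02 when scaled to the poly-A spikes, which are 0.25 and 0.23 relative to all genes under the same scaling. Paqr8, a membrane progestin receptor, was next to Pgr with 99.4 against 49.6 (log2 ratio 0.9975, just under 2-fold). A second Paqr8 probe set was at 44.1 and 28.9, at least 1.42-fold higher, and the other 2 were under the floor in both arrays. The membrane-bound Pgrmc1 had 1618 and 1369 (0.24), while its relative Pgrmc2 had 902 and 929 (-0.05). Esrra, an orphan receptor related to the estrogen receptors, had the lowest ratio, -0.28. The estrogen receptor beta gene Esr2 and the vitamin D receptor gene Vdr were under the floor in both arrays.

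**Figure D2:**
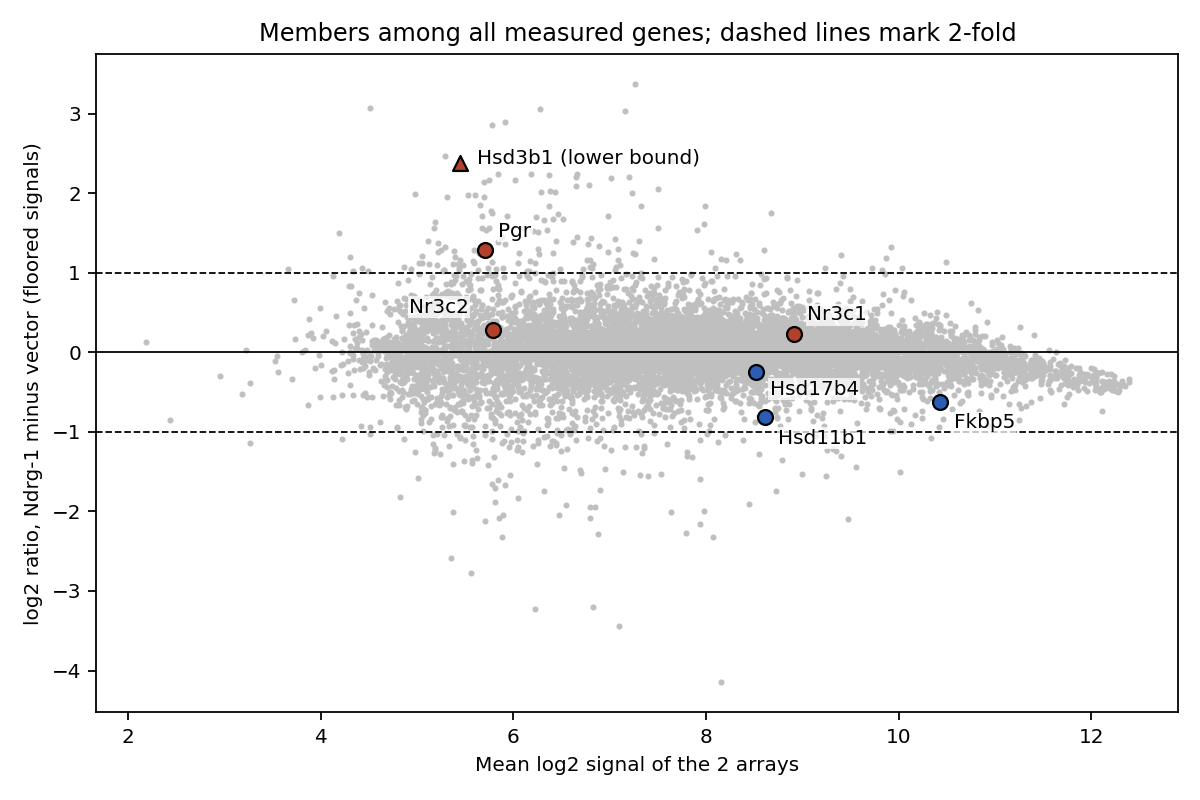
Log2 ratio of floored signals (Ndrg-1 minus vector) against the mean log2 signal of the 2 arrays for all 9182 measured genes (grey), with the 7 measured members marked; the triangle is a lower bound and dashed lines mark 2-fold. Hsd3b1 and Pgr lie above the upper dashed line at low mean signal, and Hsd11b1 and Fkbp5 lie between 0 and the lower line at higher signal.

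Lower signals in the Ndrg-1 clone were seen for the enzyme that activates glucocorticoid and for a co-chaperone of its receptor. Hsd11b1, which regenerates active glucocorticoid from its inactive form, had 295 in the Ndrg-1 clone and 516 in the vector clone, 1.76-fold lower (log2 ratio -0.81). That is beyond the SD of 0.21 between probe sets of bright genes, and at least 237 measured genes (2.58%) had a lower ratio. Hsd11b1 has a single probe set here. H6pd, which makes the NADPH that Hsd11b1 uses in the endoplasmic reticulum, had 142 and 224 (log2 ratio -0.66), and Hsd11b2, the enzyme that inactivates glucocorticoid, had 5.83 and 5.45, under the floor in both arrays.

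Fkbp5, a co-chaperone that lowers the hormone affinity of the glucocorticoid receptor and is itself induced through it, was lower on both of its probe sets. The brighter had 1113 in the Ndrg-1 clone and 1708 in the vector clone, 1.54-fold lower (log2 ratio -0.62). The dimmer had 241 and 363, 1.51-fold lower (-0.59). The probe sets differed by less than the SD of 0.21, and at least 415 measured genes (4.52%) had a lower ratio than the brighter. Fkbp4, the relative that promotes receptor activity, had 1082 and 966 (0.16). When scaled to the hybridisation spikes, the log2 ratio of Fkbp5 was -0.08 and that of Hsd11b1 -0.27, and with the poly-A spikes they were -0.84 and -1.03. Relative to all genes under the same scaling, Fkbp5 was at -0.61 and -0.63 and Hsd11b1 at -0.80 and -0.82.

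The other chaperones of steroid receptors did not reach 2-fold. The 14 genes with a probe set were above the floor in both arrays, 0 were 2-fold different, 7 lay above 0 and 7 below. The median log2 ratio was -0.0029. It was 0.15 with quantile normalization, which is 0.14 relative to all genes, and -0.11 with the floor at the 75th percentile. Fkbp5 had the lowest ratio of this list. Dnajb1, an HSP40 co-chaperone, had the highest, 0.54 with its second probe set at 0.52. Hsp90ab1, the HSP90 that holds the receptors, had 2953 and 3857 (-0.39).

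Genes induced by glucocorticoids were split in direction. Of 20 measured, 9 lay above 0 and 11 below, with a median of -0.12. Scaled to the hybridisation spikes the median was 0.43, which is -0.10 relative to all genes. The 2 genes past 2-fold, both higher, made 10.0% of those measured, beside 3.13% of all genes. Pdk4, which slows glucose oxidation, had 142 in the Ndrg-1 clone and 53.7 in the vector clone, 2.63-fold higher, and its second probe set was at least 1.27-fold higher. Klf15, a transcription factor of muscle and liver metabolism, had 176 and 68.2, 2.58-fold higher, with another probe set at least 1.92-fold higher and the last under the floor in both arrays. Of the 18 genes above the floor in both arrays, none was 2-fold lower and Fkbp5 had the lowest ratio. The other 2 have only bounds. Angptl4, a lipase inhibitor, had 56.8 and 13.7 and was at least 1.83-fold higher. Il1r2, a decoy receptor for interleukin-1, had 1.57 and 37.9 and was at least 1.23-fold lower, and it passed 2-fold with the floor at the 25th percentile (log2 ratio -2.31) and with the pseudocount (-1.62). The widely used reporter genes of the receptor were split, with Tsc22d3 at 1971 and 1581 (0.31) and Per1 at 0.23, but Sgk1 at 2989 and 3912 (-0.39). Taking a gene's median probe set in place of the brightest, neither Pdk4 nor Klf15 reached 2-fold.

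**Figure D3:**
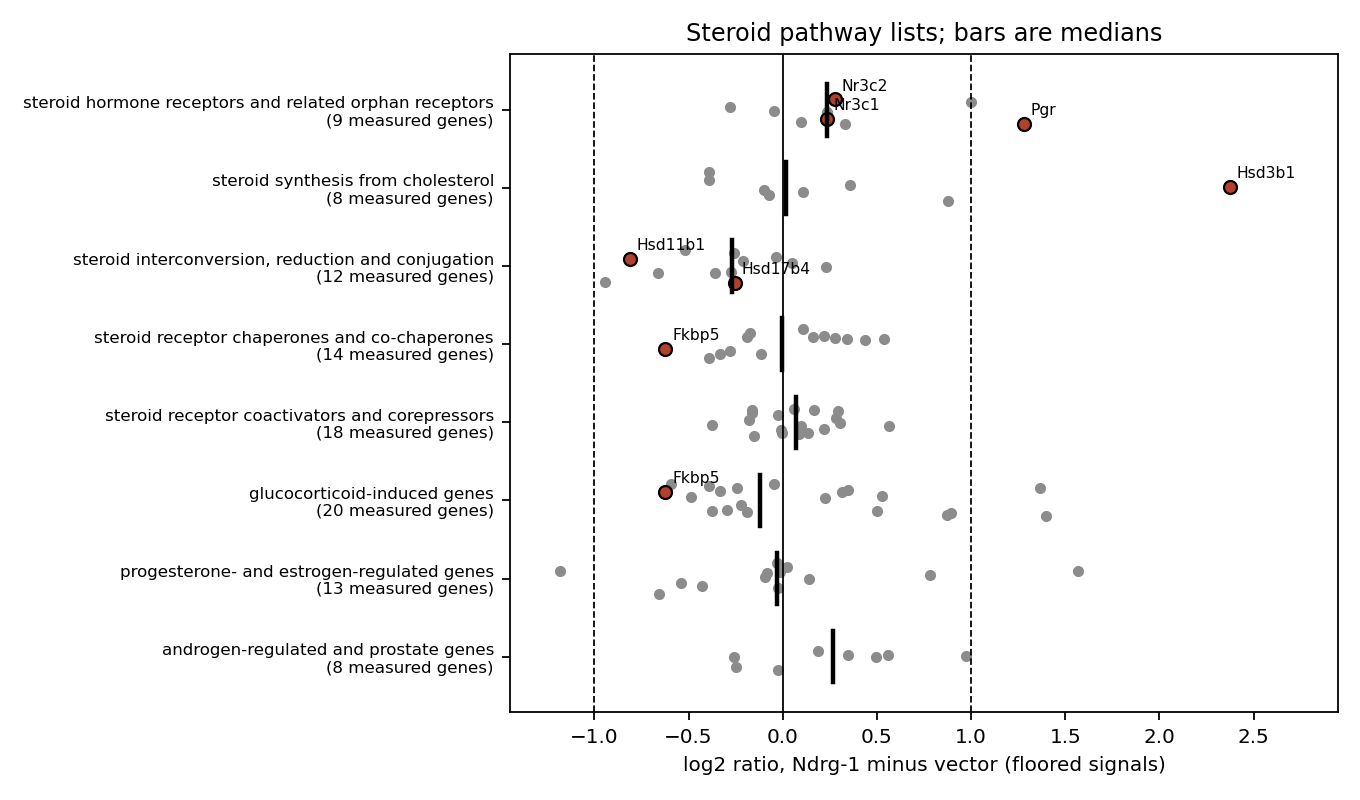
Log2 ratio (Ndrg-1 minus vector, floored signals) of each measured gene in 8 steroid pathway lists, with members in red and named, black bars at the list medians and dashed lines at 2-fold; vertical scatter within a row only separates the points. Fkbp5 is at the low end of both lists that hold it, although Il1r2, among the glucocorticoid-induced genes, is plotted at a bound of -0.29 and may lie lower, and at this floor 6 distinct genes, 5 higher and 1 lower, lie beyond 2-fold.

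Hsd17b4, a peroxisomal enzyme of fatty acid oxidation that also inactivates estradiol, had 337 in the Ndrg-1 clone and 400 in the vector clone (log2 ratio -0.25), and at least 40.0% of measured genes lay as far from 0. Scaled to the hybridisation spikes, it was at 0.29, which is -0.24 relative to all genes. Of its measured relatives, 4 of 5 also lay below 0. Hsd17b7, which makes estradiol and also serves cholesterol synthesis, was at -0.52 with its second probe set at -0.41, Hsd17b8 at -0.36, Hsd17b10 at -0.28, Hsd17b11 at -0.26 and Hsd17b12 at 0.05. Hsd17b1, Hsd17b2, Hsd17b3, Hsd17b6 and Hsd17b13 were under the floor in both arrays.

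In the whole list of steroid interconversion, reduction and conjugation, 12 of 30 genes with a probe set were measured and 0 reached 2-fold. Of these 12, 10 lay below 0, beside 4557 of all 9182 measured genes, and the list's median log2 ratio was -0.27. Scaled to the hybridisation spikes, which shift all genes upward, the median was 0.28, still -0.25 relative to all genes. The lowest was Sult1a1, a sulfotransferase, with 989 and 1895 (-0.94), and the highest Dhrs9, a short-chain dehydrogenase, at 0.23. Srd5a3, a relative of the unanalysed Srd5a1, had 631 and 729 (-0.21). Bright probe sets as a whole ran low in the Ndrg-1 clone, with a median of -0.13 in the brightest decile. After a lowess trend of the ratio with signal level was removed, this list's median was -0.29. With quantile normalization it was -0.28. What lies behind the list's median was not tested.

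Downstream lists for the other hormones were mixed. Among progesterone- and estrogen-regulated genes, 13 of 24 were measured, 1 was 2-fold higher and 1 lower, together 15.4% beside 3.13% of all measured genes, and the median was -0.03. Hand2, a progesterone-responsive transcription factor of the uterus, had 92.5 and 31.1, 2.96-fold higher, with the vector signal at the edge of the floor and its second probe set under it in both arrays. Tgm2, a transglutaminase, had 109 and 246, 2.27-fold lower, and its other probe set fell under the floor in the Ndrg-1 clone and was at least 1.61-fold lower. Greb1 and Tff1, estrogen-induced genes of breast cancer cells, were under the floor in both arrays. With each gene's median probe set, neither Hand2 nor Tgm2 reached 2-fold. Among androgen-regulated and prostate genes 8 of 20 were measured, 0 reached 2-fold and the median was 0.27. The list holds Ndrg1, the gene of the insert, at 0.34, and that ratio enters this median. With each gene's median probe set the list's median was 0.07, and with the floor at the 75th percentile it was -0.02. Pmepa1 had the highest bound, at least 1.96-fold higher, and Tmsb4x the lowest at -0.26. The prostate secretory genes Pbsn, with 0.787 and 0.745, and Acp3 were under the floor.

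Coactivators and corepressors of the receptors showed no 2-fold difference among 18 measured genes, with a median of 0.07. Safb, a corepressor of the estrogen receptor, was highest among those above the floor in both arrays, with 132 and 89.0 (0.57). Ncoa3, a coactivator, was lowest on its brighter probe set, with 50.8 and 65.5 (-0.37), but its other probe set had 45.9 and 24.8, at least 1.48-fold higher, so its direction was not settled. Over the 8 lists together, 101 of 164 distinct genes were measured, and 5 higher and 1 lower made 5.94%, beside 3.13% over all measured genes. The lists were chosen with earlier results of these arrays known and hold the 7 measured members.

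Neighbouring genes in the GRCr8 gene order were compared with the members, taking the nearest 5 measured genes on each side. Around Pgr, 5 of 10 lay above 0, none was 2-fold different and the median log2 ratio was 0.02, against 1.28 for Pgr. Around Hsd3b1, 7 of 10 lay above 0 with a median of 0.35, and the highest was Zfp697 at 0.89. Around Hsd11b1, with 9 measured neighbours because the chromosome ends, the median was -0.06. G0s2, the gene after it and an inhibitor of lipolysis, was at least 3.12-fold higher at 96.9 and 13.7, opposite to Hsd11b1. Around Fkbp5 the median was -0.06. Around Nr3c1, 9 of 10 lay above 0 with a median of 0.24, and the exception was Spry4 at -1.31.

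**Figure D4:**
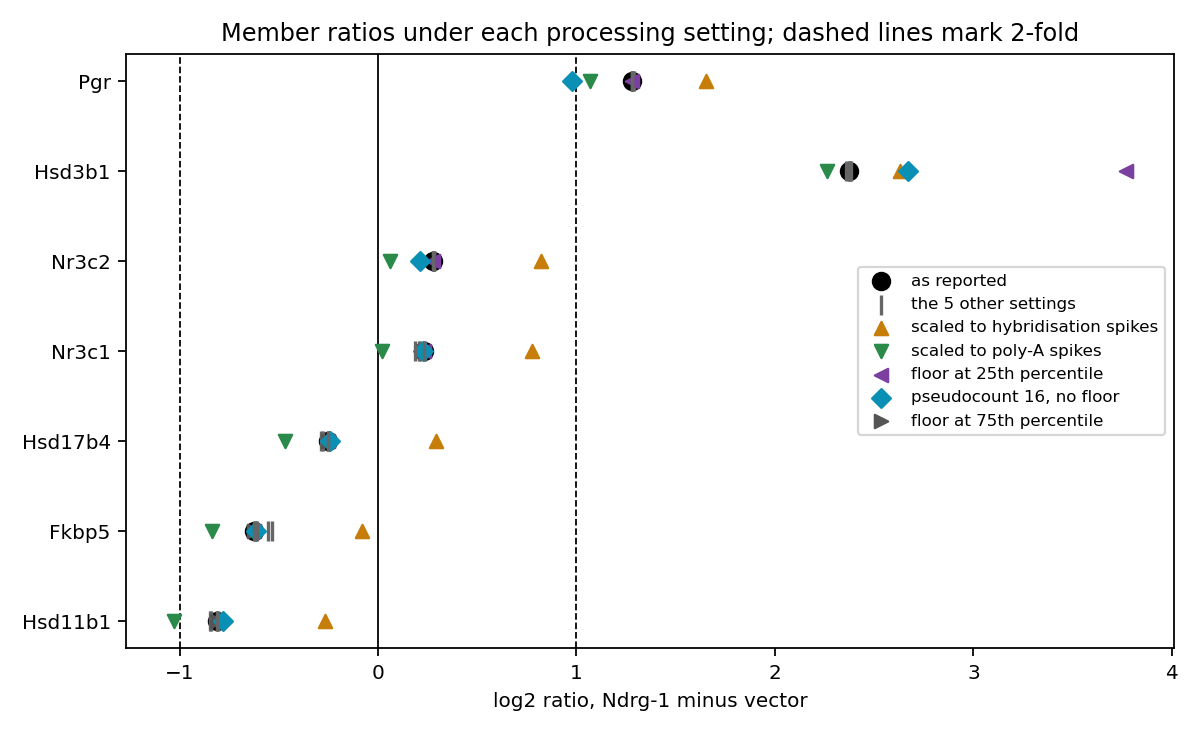
Log2 ratio (Ndrg-1 minus vector) of the 7 measured members as reported (black) and under 10 other settings of scaling, floor, pseudocount and probe set choice; dashed lines mark 2-fold, and a member under the higher floor in both arrays has no point there. Scaling to the hybridisation spikes moves every member to the right, as it does the median of all genes (to 0.53), and the lower floor moves Hsd3b1 to 3.77.

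With only 2 arrays, likeness of pattern between genes reduces to the ratio itself, so no genes are named as resembling a member.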

How the data were processed

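The data are 2 Affymetrix arrays, 1 per group. The deposited table holds 1 linear intensity for each probe set and array. The submitters' processing notes name GCOS 1.3, Affymetrix's scanner software, and how it summarised or scaled probe sets is not given in the sources used here. Of 31099 probe sets, 57 controls were set apart, 20826 carried 1 gene symbol in the platform annotation, 436 several and 9780 none, and 20758 matched RefSeq (GRCr8) by gene ID. A constant was added to the vector array's log2 signals to bring the median ratio of the brighter 50% of probe sets to 0. The floor was set at the median signal (31.0), and the brightest probe set (by mean log2 signal) stood for its gene. A difference was counted at 2-fold. The number of arrays limits the precision, and no test was possible. The procedure was run on simulated data, with differences made only in genes above the median signal. The simulated noise had the size of the SD between probe sets. That run therefore does not cover dim genes or the variation between clones, cultures and arrays.

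Named genes were all probe sets of the members, list genes that reached 2-fold (up to 6 a list) with each list's highest and lowest, close family members, and Ndrg1. Further genes named were chosen after their values were seen, as functional landmarks. The members and lists were chosen with earlier results of these data known. The alternatives were no rescaling, quantile normalization, a lowess trend removed, scaling to hybridisation or poly-A spikes, a pseudocount of 16, a floor at the 25th or the 75th percentile, the median over probe sets, and leaving out _x_at and _s_at probe sets. The software was numpy 2.4.6, pandas 2.3.3 and statsmodels 0.14.6 under Python 3.11.15.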

Additional observations from a re-analysis of the deposited data

Results flagged for a closer look

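A probe set outside the single-gene comparison, annotated to Hsd3b1, Hsd3b2 and Hsd3b3 at once, read 163 for the Ndrg-1 clone and 33.1 for the vector clone, 4.90-fold higher (log2 ratio 2.29). It was drawn out because it lies in data that the comparison of members does not use and is above the level in the vector control. Its log2 ratio was between 1.86 and 2.65 under 7 of 8 other settings of scaling, floor and pseudocount, and it was under the floor at the 75th percentile in both arrays.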

How the results depend on the processing

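Of the members, 2 were at least 2-fold higher and 0 lower under 7 of the 10 alternatives. With the floor at the 75th percentile, 0 were higher, since Pgr and Hsd3b1 then lay under it in both arrays and 4 members were measured. With the pseudocount of 16, 1 was higher (Hsd3b1, with Pgr at 0.98). Scaled to the poly-A spikes, 1 was lower (Hsd11b1 at -1.03) and 2 higher. The log2 ratios of Pgr and Hsd3b1 stayed above 0 in the 9 alternatives that measured them. Hsd17b4 went from -0.25 to 0.29 when scaled to the hybridisation spikes, and the dimmer Nr3c1 probe set to -0.07 when scaled to the poly-A spikes. These scalings moved the median of all genes to 0.53 and -0.21, and such changes of sign follow that shift. They gave 732 higher and 43 lower genes under the first and 101 and 240 under the second, against 149 and 138 as reported. The floors at the 25th and 75th percentiles gave 444 and 463, and 23 and 34. No paired analysis was possible because each group has 1 array. Hsd3b1 in the vector clone and Esr1 in both were under the floor, which limits their ratios.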
